A study of Danio rerio with 6 samples.

Results

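The genes described here encode the AKT, FOXO and mTOR signalling network of zebrafish, with the mTORC1 inhibitor ddit4 among them. They were taken by gene symbol: AKT, SGK and PDK1 kinases, GSK3 kinases, FOXO factors, insulin receptor substrates, subunits and regulators of the mTOR complexes, TSC and RHEB, S6 kinases and 4E-BPs, sestrins, PHLPP phosphatases, and the PIP4K and PIP5K lipid kinases. A mean normalized count above 5 over the 6 libraries was also required. Such a symbol was borne by 69 of the 17835 listed genes, and 67 of them passed the minimum. The pair left out was pip5k1ca, whose mean lay on the minimum at 5.0, and foxo6b, with a mean of 3.17. The lowest genes kept were pip5k1cb (6.67), rps6ka5 (8.5) and phlpp2 (15.7).

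The libraries came from endocardial cells, the inner lining of the heart, sorted by their green fluorescence at 96 hours post cryoinjury (hpci), a freeze injury of the ventricle of adult zebrafish. Each of the 3 myd88-/- libraries was a pool of 4 ventricles of fish homozygous for the mutant allele hu3568, and each of the 3 myd88+/+ libraries was a pool of 4 ventricles of wild-type fish of the same families. All fish carried the enhancer trap ET(krt4:EGFP)sqet33-1A, whose EGFP marks the sorted cells, and all were cryoinjured, so the libraries hold no uninjured reference. MyD88 is the adapter through which most Toll-like receptors and interleukin-1 family receptors signal, and the mutation was present in every cell of the fish, so it was not restricted to the endocardium.

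Insulin, growth factors and some immune receptors activate PI3K, whose lipid product recruits PDK1 and AKT to the membrane. AKT phosphorylates FOXO transcription factors, which keeps them out of the nucleus, and the TSC complex, which releases the small GTPase RHEB to activate mTORC1, a kinase complex that promotes translation through S6 kinase and the 4E-BPs. Much of this control runs through phosphorylation and lipid turnover, whereas the values here are RNA levels. FOXO factors in turn raise transcription of genes such as IRS2 and the sestrins when AKT is low, and glucocorticoids and hypoxia induce DDIT4 in mammals.

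The sums of the normalized counts were 11136966 to 11348450 in myd88-/- libraries and 11530505 to 11847536 in myd88+/+ libraries. The library myd88-/- replicate 3 stood apart: its mean Spearman correlation was 0.969 with the other myd88-/- libraries and 0.971 with the myd88+/+ libraries, and 252 genes were more than 2-fold above the other 5 libraries in it, against 13 to 37 in each of the others. myd88 itself had 817, 575 and 849 normalized counts in myd88-/- pools, against 1305, 1149 and 1070 in myd88+/+ pools, a log2 fold change of -0.67 ± 0.17 (SE) that did not pass the criteria (limma adjusted p 0.150). Of 24 endocardial and endothelial markers 24 were in the table and 0 passed. An unadjusted limma p under 0.05 was reached by 5 with lower and 5 with higher values, against 6.97% and 6.20% of all genes tested. Their summed level was 166628 to 229874 in myd88-/- and 197947 to 230073 in myd88+/+ libraries. Macrophage markers were present, with 16 of 18 tested below 0, 0 past the criteria and sums of 23541 to 28557 in myd88-/- and 24291 to 34594 in myd88+/+ libraries. The neutrophil defining markers mpx and lyz are not among the listed genes, and of 4 neutrophil markers tested 3 lay below 0, 1 of them at an unadjusted p under 0.05, and 0 passed (median -0.48), with sums of 739 to 1137 in myd88-/- and 872 to 1302 in myd88+/+ libraries. Of 10 mural cell markers 8 lay below 0 and 0 passed, with sums of 24444 to 32126 in myd88-/- and 26692 to 37040 in myd88+/+ libraries. Cardiomyocyte markers summed to 33572 to 45980 in myd88-/- and 37913 to 50111 in myd88+/+ libraries, with 0 of 16 past the criteria. Epicardial and fibroblast markers, of which 1 of 15 passed, summed to 203705 to 231882 in myd88-/- and 229572 to 267477 in myd88+/+ libraries. Of 7 erythrocyte markers 7 lay above 0 and 0 passed, with sums of 251 to 692 in myd88-/- and 31 to 477 in myd88+/+ libraries. Thrombocyte and lymphocyte markers had 0 of 5 past the criteria, with 1 higher and 0 lower at an unadjusted limma p under 0.05. They summed to 9989 to 13087 in myd88-/- and 6628 to 10831 in myd88+/+ libraries. The part of such cells in the results below was not tested, and in sorted pools fewer cells of a type and less RNA per cell cannot be told apart.

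Of the network, 3 genes were lower in the myd88-/- endocardium: ddit4, the stress-induced inhibitor of mTORC1, pip4k2aa, a phosphoinositide kinase gene, and SGK3, a kinase related to AKT. These 3 of 67 genes, or 4.48%, passed the criteria of a Benjamini-Hochberg adjusted p under 0.05 and a fold change above 1.5. The share was 0.702% over the 16383 genes tested, and 0.562% for lower values alone. The network was chosen with earlier results of these data known, so its higher share is a description and no test. pip4k2aa and SGK3 also lie near myd88 on its chromosome, as described below. No network gene passed the criteria in the other direction (0.140% of all genes). The core of the pathway held 0 genes past the criteria: none of the AKT genes, 0 of 4 GSK3 genes, 0 of 5 TSC and RHEB genes and 0 of 7 mTOR complex genes. At the share of 0.702% over all genes, groups of this size would hold few or none. In this core deptor, akt1s1 and gsk3bb reached an unadjusted limma p under 0.05. The median log2 fold change was -0.03 over the 67 genes and 0.01 over all genes tested, with 35 of the 67 below 0 and 32 above. An unadjusted limma p under 0.05 was reached by 14 of the 67 genes, or 20.9%, against 13.2% of all genes, with 11 lower (6.97% of all genes) and 3 higher (6.20%). The values of 16 genes, 23.9%, did not overlap between genotypes, against 18.1% of all genes: 12 lay lower (8.98% of all genes) and 4 higher (9.09%).

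**Figure D1:**
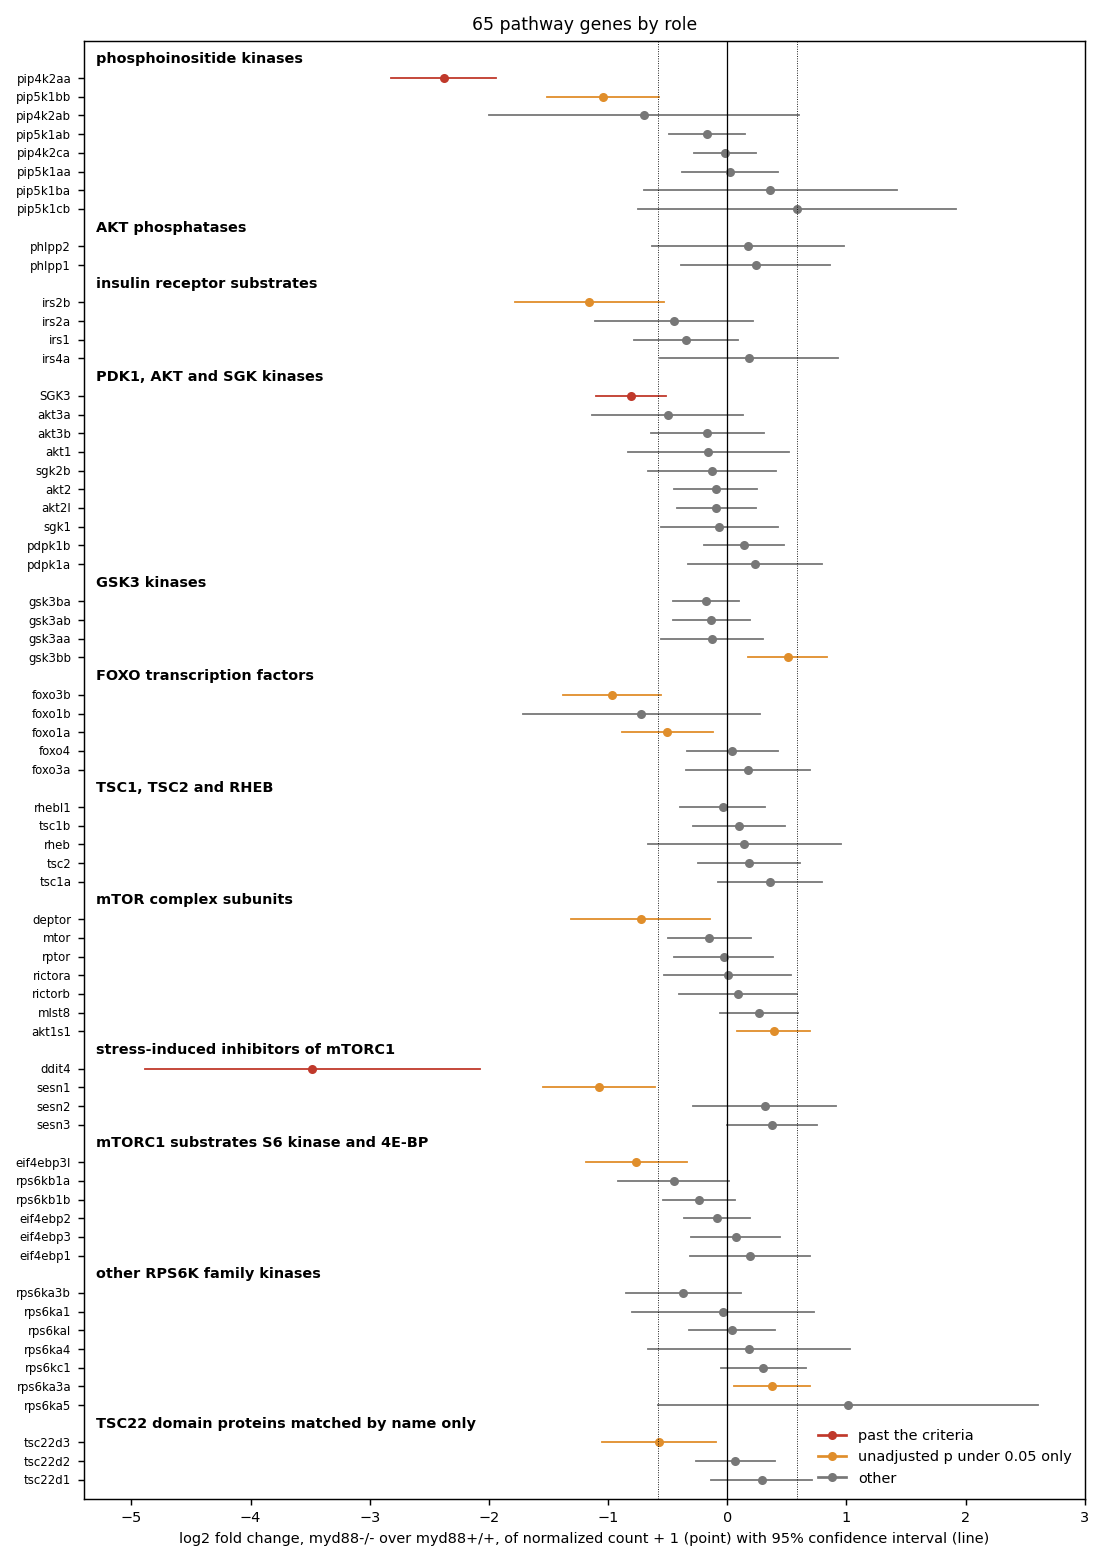
Log2 fold change of normalized count + 1, myd88-/- over myd88+/+, of 65 genes of the network, grouped by role, as a point with its 95% confidence interval as a line; colour marks genes past the criteria, genes with an unadjusted limma p under 0.05, and the rest. The points run between -3.48 for ddit4 and 1.01 for rps6ka5, most lie close to 0, and the 3 genes past the criteria all lie to the left.

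The intervals show what these 6 libraries could resolve. The 95% interval of the fold change lay wholly within 1.5-fold either way for 24 of the 67 genes and reached past it for the other 43. By point estimate 54 genes, or 80.6%, lay within 1.5-fold, against 85.8% of all genes tested. Low values limited some of them, since 9 had a mean under 50.

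ddit4 (also called REDD1), which restrains mTORC1 through the TSC complex, had the lowest fold change of the network. It lies on the plus strand of chromosome 12 from 48340133 to 48342259 (danRer11; ENSDARG00000037618). Its normalized counts were 239, 202 and 799 in myd88-/- pools, against 3750, 1688 and 8565 in myd88+/+ pools. The genotypes did not overlap, and the lowest myd88+/+ pool was 2.11 times the highest myd88-/- pool, but the pools within a genotype were far apart. Replicate 3 was 3.62 times the mean of the others in myd88-/- and 3.15 times in myd88+/+. The log2 fold change was -3.48 ± 0.62 (SE), with a 95% interval of -4.89 to -2.07 and a limma adjusted p of 0.0489. It was negative in 13 of 13 alternative analyses (-4.10 to -2.89), while its adjusted p ran between 0.00535 and 0.204 and missed 0.05 in 7 of them, which included the analyses without myd88-/- replicate 1 (0.204), myd88-/- replicate 2 (0.147), and myd88+/+ replicates 1 (0.156), 2 (0.0658) or 3 (0.126).

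Sestrins are the other stress-induced inhibitors of mTORC1, and they did not move as a group. sesn1 had 773, 706 and 897 normalized counts in myd88-/- pools, against 2234, 1228 and 1676 in myd88+/+ pools, with no overlap and a log2 fold change of -1.08 ± 0.21 that did not pass the criteria (limma adjusted p 0.0636). It overlaps an unnamed gene, si:ch211-51a19.5, on the other strand. Without myd88-/- replicate 3 its adjusted p was 0.0430. Among the 13 alternatives it reached 0.247, and sesn1 did not pass in 12 of them. sesn3, the copy with the highest mean of this role group, had 3838, 2506 and 3248 in myd88-/- pools, against 2249, 2377 and 2687 in myd88+/+ pools (log2 fold change 0.37, 95% interval -0.01 to 0.75, limma adjusted p 0.385). sesn2 had 113, 111 and 62 in myd88-/- pools and 79, 76 and 67 in myd88+/+ pools, so the 4 inhibitor genes were split between both directions.

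**Figure D2:**
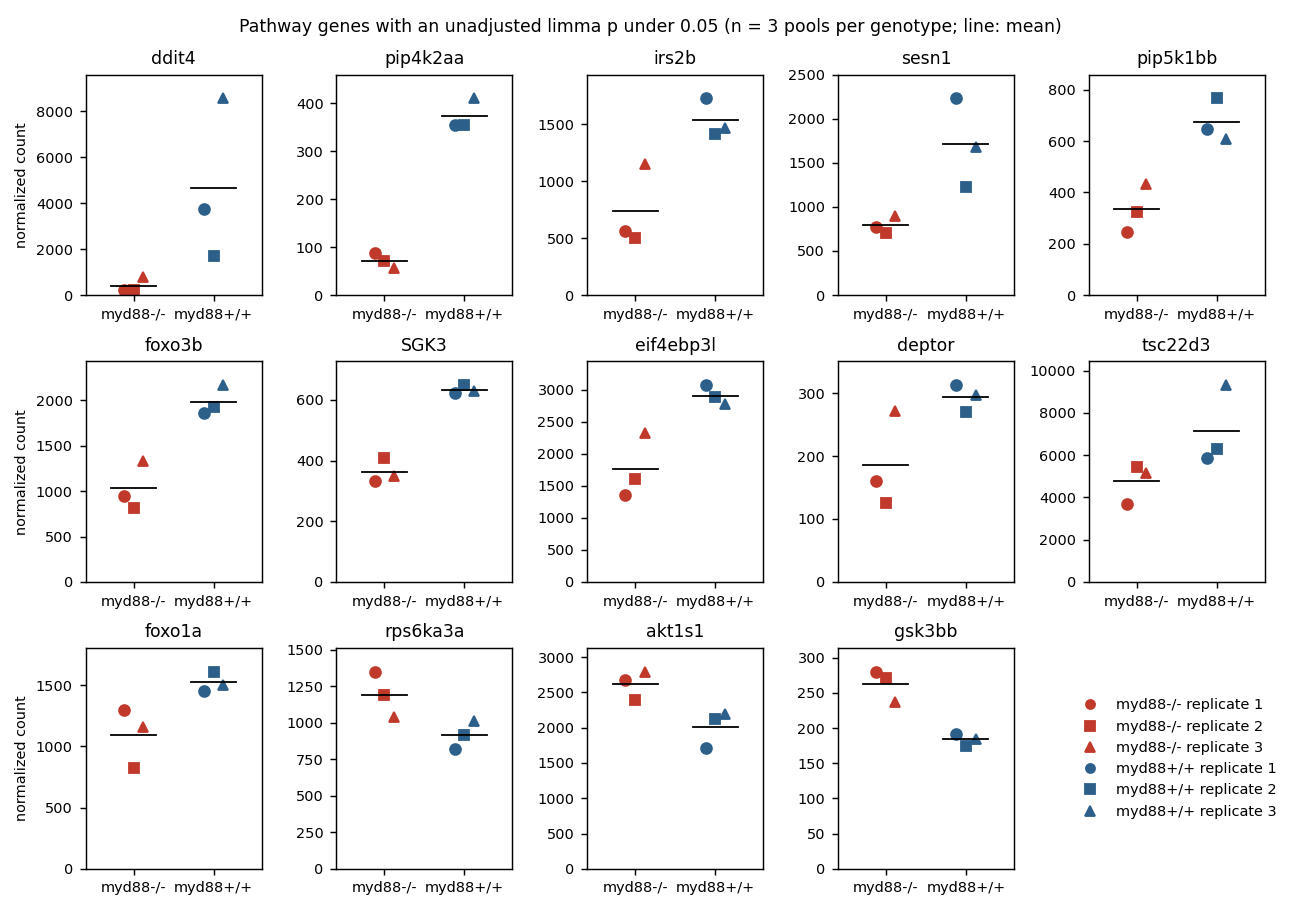
Normalized count in each of the 3 myd88-/- and 3 myd88+/+ pools (points, with the mean as a line) of the 14 network genes with an unadjusted limma p under 0.05; each panel has its own axis from 0. In 11 panels the mean of the myd88-/- pools lies lower, with overlapping pools for deptor, and in those of gsk3bb, akt1s1 and rps6ka3a it lies higher.

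FOXO factors, which switch on genes of growth arrest and stress resistance, had the lowest median of the role groups with 5 or more genes, -0.50, with 0 of 5 past the criteria. foxo3b had 951, 812 and 1334 normalized counts in myd88-/- pools, against 1860, 1924 and 2169 in myd88+/+ pools. For foxo1a the counts were 1294, 826 and 1156 in myd88-/- pools, against 1456, 1608 and 1501 in myd88+/+ pools. Neither overlapped between genotypes, and their log2 fold changes were -0.97 ± 0.18 for foxo3b (limma adjusted p 0.0572) and -0.50 ± 0.17 for foxo1a (0.253). For foxo3b the adjusted p was 0.00495 without myd88-/- replicate 3 and 0.0127 with libraries weighted by their quality. Among the 13 alternatives it reached 0.252, and foxo3b did not pass in 11 of them. The other FOXO genes overlapped between genotypes: foxo3a had 59, 53 and 78 in myd88-/- pools and 58, 55 and 53 in myd88+/+ pools. foxo4 had a log2 fold change of 0.04 with an interval of -0.34 to 0.42. foxo1b had 48, 28 and 54 normalized counts in myd88-/- pools, against 43, 56 and 139 in myd88+/+ pools, where replicate 3 was again the highest. Like foxo1a it lay below 0, with a log2 fold change of -0.72 and an interval of -1.72 to 0.27.

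Insulin receptor substrates couple the insulin and IGF receptors to PI3K, and 3 of 4 lay below 0 with 0 past the criteria. irs2b had 559, 502 and 1147 normalized counts in myd88-/- pools, against 1727, 1414 and 1466 in myd88+/+ pools. The genotypes did not overlap, and myd88-/- replicate 3 was 2.16 times the mean of the other myd88-/- pools. The log2 fold change was -1.16 ± 0.28 (limma adjusted p 0.132), and -1.53 without that library (0.00150). Among the 13 alternatives the adjusted p reached 0.406, and irs2b did not pass in 11 of them. The intervals of the others were -0.79 to 0.09 for irs1, -1.11 to 0.22 for irs2a and -0.56 to 0.93 for irs4a.

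Phosphoinositide kinases make the lipid that PI3K phosphorylates. pip4k2aa (ENSDARG00000003776) lies on the plus strand of chromosome 24 from 17068724 to 17127833. It had 88, 71 and 57 normalized counts in myd88-/- pools, against 356, 356 and 411 in myd88+/+ pools, so every myd88-/- pool was far below every myd88+/+ pool. It fell by 2.38 on the log2 scale (SE 0.19, 95% interval -2.82 to -1.94, limma adjusted p 0.00133) and stayed past the criteria in 13 of 13 alternative analyses, with adjusted p between 0.000515 and 0.0239. Its duplicate pip4k2ab, on another chromosome, had 14, 12 and 20 in myd88-/- pools, against 49, 9 and 34 in myd88+/+ pools, a log2 fold change of -0.70 ± 0.57. The related pip4k2ca differed little, with 2417, 2413 and 2123 in myd88-/- pools and 2361, 2276 and 2401 in myd88+/+ pools (-0.02, interval -0.28 to 0.24). Among the PIP5K genes pip5k1bb had 245, 323 and 433 in myd88-/- pools, against 646, 767 and 609 in myd88+/+ pools, with no overlap (log2 fold change -1.04 ± 0.21, limma adjusted p 0.0679). Its adjusted p was 0.0108 without myd88-/- replicate 3. Among the 13 alternatives it reached 0.312, and pip5k1bb did not pass in 11 of them. The other PIP5K genes overlapped between genotypes, with intervals of -0.38 to 0.43 for pip5k1aa, -0.49 to 0.15 for pip5k1ab, -0.70 to 1.43 for pip5k1ba and -0.75 to 1.92 for pip5k1cb.

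PHLPP phosphatases remove an activating phosphate from AKT. phlpp1 had 94, 62 and 76 normalized counts in myd88-/- pools and 67, 47 and 85 in myd88+/+ pools (log2 fold change 0.24, interval -0.38 to 0.86). The genotypes overlapped, and phlpp2 was too low to resolve, with 16, 14 and 20 in myd88-/- pools and 13, 13 and 18 in myd88+/+ pools.

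PDK1 activates AKT and the SGK kinases. pdpk1b had 1460, 1132 and 1153 normalized counts in myd88-/- pools and 1022, 1085 and 1282 in myd88+/+ pools (log2 fold change 0.14, interval -0.19 to 0.47). pdpk1a had 113, 77 and 110 in myd88-/- pools and 79, 68 and 109 in myd88+/+ pools (0.23, interval -0.33 to 0.80). The genotypes overlapped for both copies. The 5 AKT genes also overlapped: akt2 had an interval of -0.45 to 0.25, akt2l of -0.42 to 0.24 and akt3b of -0.64 to 0.31. akt3a reached lower, with an interval of -1.14 to 0.14, and akt1 was low, with 27, 23 and 19 normalized counts in myd88-/- pools and 24, 29 and 24 in myd88+/+ pools.

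SGK3, which is held on endosomes by a phosphoinositide, was the kinase of this group that fell. Its gene (ENSDARG00000062460, minus strand of chromosome 24, 23758510 to 23784701) had 333, 408 and 348 normalized counts in myd88-/- pools, against 623, 649 and 629 in myd88+/+ pools. The pools of a genotype lay close together and the genotypes did not overlap. The log2 fold change was -0.81 ± 0.13 (limma adjusted p 0.0316). Across the 13 alternatives it was -0.89 to -0.75, but the adjusted p was above 0.05 in 8 of them, with 0.159 and 0.0516 without myd88-/- replicates 1 and 2, 0.116, 0.200 and 0.102 without myd88+/+ replicates 1, 2 and 3, 0.0527 with equal library totals, and 0.200 as the highest. sgk1, the glucocorticoid-induced member with the highest normalized count of the 67 genes (not corrected for length), had 9712, 9389 and 8313 in myd88-/- pools and 7370, 8692 and 13648 in myd88+/+ pools. These overlapped (-0.07, interval -0.56 to 0.42), and the sign of the sgk1 value depended on the library left out (-0.26 to 0.19). sgk2b had an interval of -0.66 to 0.41.

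GSK3 kinases are inhibited by AKT. gsk3bb had 280, 271 and 237 normalized counts in myd88-/- pools, against 192, 175 and 185 in myd88+/+ pools, with no overlap (log2 fold change 0.51 ± 0.15, limma adjusted p 0.190). Its more abundant copy gsk3ba had 1096, 1059 and 903 in myd88-/- pools, against 1162, 1144 and 1148 in myd88+/+ pools (-0.18, interval -0.46 to 0.09). Neither passed the criteria, and the point estimates of the copies had opposite signs. gsk3aa and gsk3ab had intervals of -0.56 to 0.30 and -0.45 to 0.19.

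TSC1 and TSC2 hold RHEB, and with it mTORC1, in check. tsc2 had 232, 287 and 365 normalized counts in myd88-/- pools and 289, 240 and 241 in myd88+/+ pools (log2 fold change 0.18, interval -0.25 to 0.61). It overlaps CABZ01067150.2 on the same strand. rhebl1 had 729, 892 and 975 in myd88-/- pools and 946, 968 and 748 in myd88+/+ pools (-0.04, interval -0.39 to 0.32). The genotypes overlapped in these genes. The intervals were -0.08 to 0.79 for tsc1a, -0.28 to 0.49 for tsc1b and -0.67 to 0.96 for rheb, and 0 of the 5 TSC and RHEB genes reached an unadjusted p under 0.05.

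The mTOR kinase itself and its scaffold RPTOR were measured with similar precision. mtor had 245, 244 and 298 normalized counts in myd88-/- pools and 302, 260 and 310 in myd88+/+ pools (log2 fold change -0.15, interval -0.50 to 0.20); it overlaps angptl7 on the other strand. rptor overlaps CR388029.1 on the same strand. It had 185, 158 and 219 in myd88-/- pools and 172, 179 and 222 in myd88+/+ pools (-0.03, interval -0.45 to 0.39), and its sign depended on the library left out. For mtor and rptor the genotypes overlapped, and a change above 1.5-fold lay outside the intervals. Of the regulatory subunits, deptor is an inhibitor of both complexes. It had 161, 126 and 271 in myd88-/- pools, against 313, 270 and 297 in myd88+/+ pools. The genotypes overlapped, as myd88-/- replicate 3 reached into the myd88+/+ range. The log2 fold change was -0.73 ± 0.26 (limma adjusted p 0.275, and 0.0304 without that library). Among the 13 alternatives the adjusted p reached 0.610, and deptor did not pass in 12 of them. akt1s1, which encodes PRAS40, an inhibitor of mTORC1 that AKT relieves, had 2684, 2392 and 2792 in myd88-/- pools, against 1714, 2130 and 2190 in myd88+/+ pools, with no overlap (0.39 ± 0.14, limma adjusted p 0.271). The shared subunit mlst8 had 299, 258 and 311 in myd88-/- pools, against 225, 240 and 256 in myd88+/+ pools, with no overlap (0.26, interval -0.06 to 0.59); it overlaps pgp and zdhhc4 on the other strand. The mTORC2 scaffold genes rictora and rictorb had intervals of -0.53 to 0.53 and -0.41 to 0.58. The median of the 7 mTOR complex genes was 0.00.

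The direct substrates of mTORC1 held 1 gene with an unadjusted p under 0.05. It was eif4ebp3l, a 4E-BP gene whose product blocks cap-dependent translation, with 1350, 1607 and 2320 normalized counts in myd88-/- pools, against 3076, 2885 and 2774 in myd88+/+ pools. The genotypes did not overlap, with myd88-/- replicate 3 nearest to the myd88+/+ pools. The log2 fold change was -0.76 ± 0.19 (limma adjusted p 0.141), and the adjusted p was 0.00829 without that library. Among the 13 alternatives it reached 0.407, and eif4ebp3l did not pass in 11 of them. eif4ebp2, the 4E-BP gene with the highest normalized count, had 7288, 7405 and 6487 in myd88-/- pools and 7538, 7736 and 7188 in myd88+/+ pools (-0.09, interval -0.36 to 0.19). eif4ebp1, a gene of the amino acid starvation response in mammals, had 5307, 4643 and 3158 in myd88-/- pools and 2905, 4424 and 4063 in myd88+/+ pools. eif4ebp3 had an interval of -0.31 to 0.45. The S6 kinase genes rps6kb1a and rps6kb1b had intervals of -0.91 to 0.02 and -0.54 to 0.06.

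The symbol rule also took in genes that are not S6 kinases or TSC proteins. The 7 other RPS6K genes encode RSK and MSK kinases of the MAP kinase branch or a related protein. Of these, rps6ka3a had 1349, 1194 and 1039 normalized counts in myd88-/- pools, against 823, 916 and 1011 in myd88+/+ pools, with no overlap (log2 fold change 0.38 ± 0.14, limma adjusted p 0.306). The intervals of the others held 0: -0.80 to 0.73 for rps6ka1, -0.85 to 0.12 for rps6ka3b, -0.59 to 2.61 for rps6ka5 (13, 6 and 14 in myd88-/- pools and 9, 1 and 8 in myd88+/+ pools), -0.32 to 0.40 for rps6kal and -0.05 to 0.66 for rps6kc1. rps6ka4 had 41, 59 and 43 in myd88-/- pools and 40, 25 and 70 in myd88+/+ pools, which overlapped. The TSC22 genes encode leucine zipper proteins, and tsc22d3 (GILZ), a glucocorticoid-induced gene in mammals, had 3712, 5433 and 5172 in myd88-/- pools, against 5874, 6284 and 9323 in myd88+/+ pools (-0.57 ± 0.21, limma adjusted p 0.300). tsc22d1 and tsc22d2 had intervals of -0.13 to 0.71 and -0.26 to 0.40.

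Library and genotype were both visible in these genes. Of the 11 genes with a lower value and an unadjusted limma p under 0.05, 7 had their highest myd88-/- value in replicate 3, the library that stood apart. The share among all lower genes at this p was not computed, so the count is not read as a trait of the network. Over all 67 genes myd88-/- replicate 3 was the highest myd88-/- library in 32, or 47.8%, against 35.6% of all genes tested, and myd88+/+ replicate 3 was the highest myd88+/+ library in 33, or 49.3%, against 36.0%. Without myd88-/- replicate 3 the number of network genes past the criteria was 9 in place of 3, with foxo3b, sesn1, irs2b, pip5k1bb, eif4ebp3l and deptor added. In that fit 1.51% of all genes tested passed, against 0.702% with all libraries. The number of network genes was 1, pip4k2aa, when any single one of the other 5 libraries was left out. The share over all genes was then 0.171% to 0.366%.

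Both network genes besides ddit4 that fell lie on chromosome 24, which also carries myd88. pip4k2aa lies 3.06 Mb and SGK3 3.57 Mb from myd88, on opposite sides. Within 4 Mb of myd88, 10 of 101 genes tested passed the criteria, or 9.9%. Within 10 Mb it was 16 of 210, or 7.62%, with 8 lower and 8 higher, against 99 of 16172 genes elsewhere, or 0.612%. Fish of a genotype can share sequence around myd88 as well as the allele itself, so loss of MyD88 and linked sequence cannot be told apart for pip4k2aa and SGK3. The other 3 network genes on the chromosome did not pass: rps6ka3b at 3.99 Mb (log2 fold change -0.37), pdpk1b at 17.1 Mb and rheb at 21.1 Mb. Of the 64 network genes outside the 10 Mb, 1 passed, ddit4. Of the 11 lower genes with an unadjusted limma p under 0.05, 9 lie off chromosome 24 and the others are pip4k2aa and SGK3. Only 5 of the 67 network genes lie on that chromosome.

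**Figure D3:**
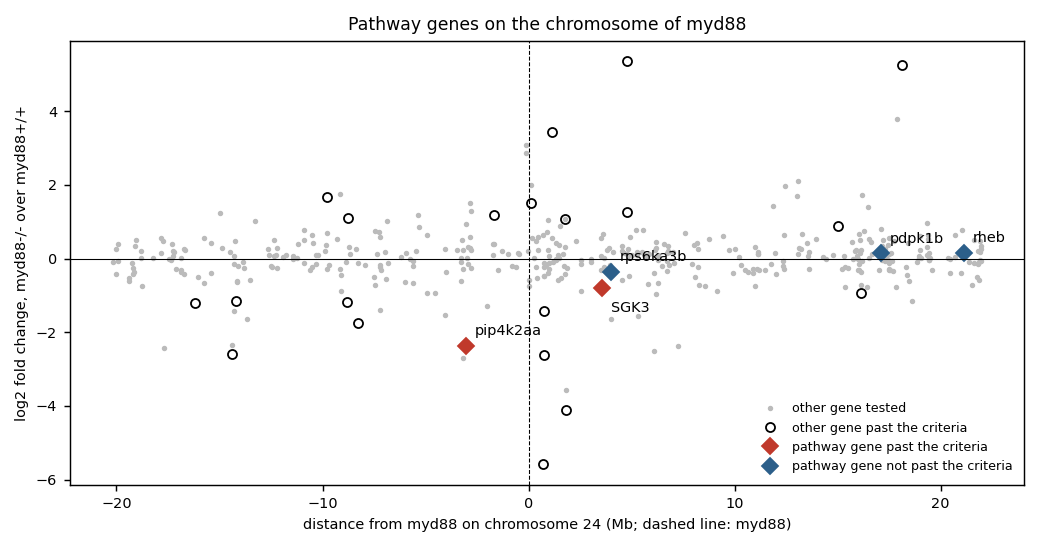
Log2 fold change, myd88-/- over myd88+/+, of every tested gene on chromosome 24 against its distance from myd88 in Mb (dashed line at 0), with network genes as diamonds and other genes past the criteria as open circles. pip4k2aa and SGK3 lie 3.06 and 3.57 Mb from myd88 on either side, among other genes past the criteria in both directions, while pdpk1b and rheb lie farther out and near 0.

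Many zebrafish genes persist as duplicated a and b copies, and 15 such pairs were complete in the network. The ratio of the copies within a library does not depend on how the libraries were scaled. The log2 ratio of copy a to copy b did not overlap between genotypes in 5 of the 15 pairs. Its difference, myd88-/- minus myd88+/+, was -1.68 for pip4k2a, -0.69 for gsk3b, 0.75 for rps6ka3, 1.14 for foxo3 and 1.41 for pip5k1b. The tightest was gsk3b, with a ratio of 1.95 ± 0.02 in myd88-/- and 2.64 ± 0.06 in myd88+/+ libraries (SD, n = 3 each). For foxo3 the ratio was -3.99 ± 0.08 in myd88-/- and -5.14 ± 0.18 in myd88+/+ libraries. An exact two-sided permutation test gave p 0.1 for each of the 5 pairs, the smallest value that 3 against 3 libraries allow, and 0.3 after Benjamini-Hochberg adjustment over the 15. For gsk3a the difference was 0.01. The share of other duplicated gene pairs without overlap was not computed, so the 5 of 15 cannot be set against a background. Each of the 5 holds a gene with an unadjusted limma p under 0.05 above, so their ratios restate part of those values. The low copies pip4k2ab and pip5k1ba had means of 23 and 30.5. The SD of the pip4k2a ratio was 1.19 in myd88+/+ libraries.

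**Figure D4:**
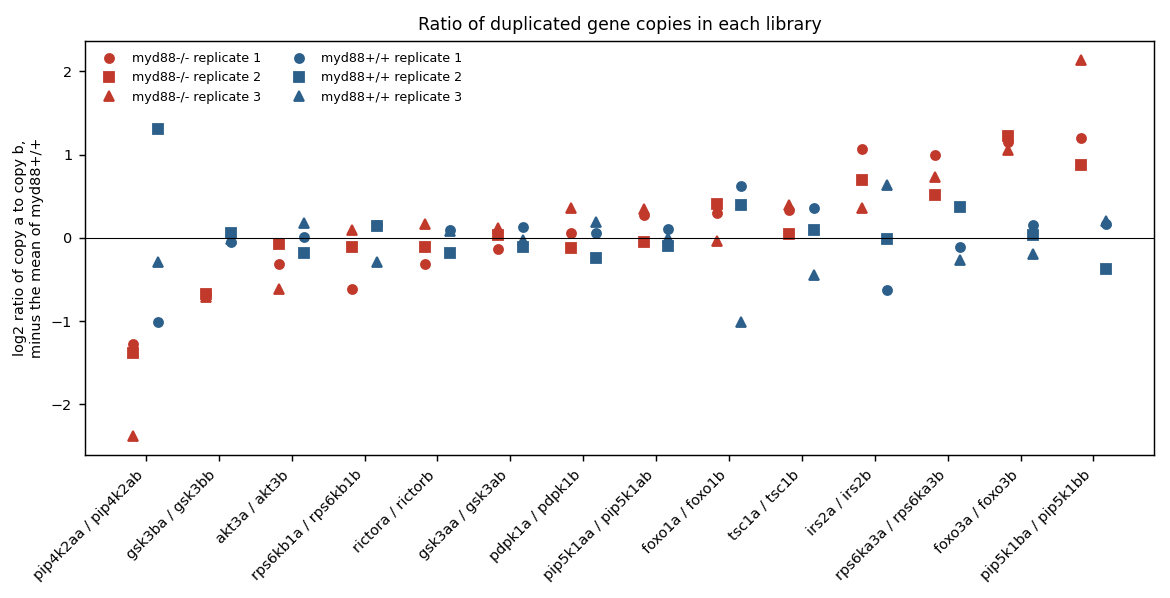
Log2 ratio of copy a to copy b in each library, minus the mean of the myd88+/+ libraries, for 14 duplicated pairs of the network. The foxo3 and pip5k1b ratios of the myd88-/- libraries lie above those of the myd88+/+ libraries, the pip4k2a and gsk3b ratios lie below, and the gsk3a ratios lie around 0.

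Upstream of the network, 31 genes for insulin and IGF receptors, class I PI3K and phosphoinositide phosphatases were tested. This list and those below were chosen with earlier results of these data known, so their counts are a description and no test. Of the 31 genes 2 fell and 0 rose, against 0.562% and 0.140% of all genes, with a median log2 fold change of 0.06. The gene pik3ip1, an inhibitor of PI3K, had 774, 835 and 967 normalized counts in myd88-/- pools, against 1472, 1517 and 1766 in myd88+/+ pools (-0.89, limma adjusted p 0.0232). The other, pik3r1, the regulatory subunit p85-alpha, had 880, 732 and 968 in myd88-/- pools, against 1434, 1485 and 1433 in myd88+/+ pools (-0.76, limma adjusted p 0.0448). Among the genes above 0 pik3cg, a catalytic subunit, had the smallest p (0.48, limma adjusted p 0.217). Neither pik3ip1 nor pik3r1 overlapped between genotypes, and the list held 0 genes past the criteria when any single library other than myd88-/- replicate 3 was left out. Genes that sense amino acids and energy upstream of mTORC1 had 0 of 39 past the criteria and a median of 0.05, with the smallest p at slc3a2b (-0.40, limma adjusted p 0.304), part of an amino acid transporter, and prkab1a (0.80, limma adjusted p 0.141), an AMPK subunit. The 9 partners and assembly factors of the mTOR complexes had 0 past the criteria and a median of -0.10, with the smallest p at prr5a (-0.75, limma adjusted p 0.388) and tti1 (0.42, limma adjusted p 0.553).

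Downstream, genes known as FOXO targets in mammals had 3 of 39 past the criteria, all lower, against 0.562% of all genes. Their median was -0.06. ulk2, a kinase that starts autophagy, had 224, 193 and 262 normalized counts in myd88-/- pools, against 759, 871 and 1104 in myd88+/+ pools (95% interval of the log2 fold change -2.40 to -1.59, limma adjusted p 0.00210). pdk2b, a pyruvate dehydrogenase kinase, had 1292, 1079 and 1571 in myd88-/- pools, against 3790, 4444 and 3861 in myd88+/+ pools (-1.63, limma adjusted p 0.00271). txnipa, an inhibitor of glucose uptake, had 8129, 7401 and 11684 in myd88-/- pools, against 16408, 19699 and 21591 in myd88+/+ pools (-1.10, limma adjusted p 0.0489). These 3 fell without overlap, though with no trend in the variance 1 gene of the list passed, while 18 of the 39 targets lay above 0, bcl6aa among them (0.50, limma adjusted p 0.186). Translation and transcription effectors of mTORC1 had 0 of 28 past the criteria, with 20 below 0 and a median of -0.11, and the smallest p were those of rps6 (-0.46, limma adjusted p 0.164) and tfe3a (0.27, limma adjusted p 0.488). The integrated stress response, which shares sesn2 and eif4ebp1 as targets in mammals, had 0 of 24 past the criteria and a median of 0.05, with the smallest p at mthfd2 (-0.62, limma adjusted p 0.306) and eif2ak3 (0.53, limma adjusted p 0.242).

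ddit4 is known to respond to hypoxia and to glucocorticoids in mammals, and both lists were read beside it. Of 23 hypoxia response genes 2 fell and 0 rose, against 0.562% and 0.140% of all genes, with a median of -0.13. hif1al had 1869, 1789 and 2758 normalized counts in myd88-/- pools, against 5119, 6203 and 6440 in myd88+/+ pools (-1.49, limma adjusted p 0.00829). angptl4, a lipase inhibitor, had 3495, 3975 and 4891 in myd88-/- pools, against 8605, 9963 and 12076 in myd88+/+ pools (-1.31, limma adjusted p 0.0132). Neither overlapped, and vegfab lay higher without passing (0.54, limma adjusted p 0.318). The count of this list was 0 without myd88-/- replicate 1 or myd88+/+ replicate 2, 1 without myd88-/- replicate 2 or myd88+/+ replicate 3, and 3 without either of the other libraries.

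The glucocorticoid list was also chosen with earlier results of these data known, so its counts are a description and no test. Of 21 glucocorticoid-responsive genes and receptors, 6 fell, ddit4 included, and 0 rose, against 0.562% and 0.140% of all genes. Leaving out myd88-/- replicate 3 gave 10 such genes, leaving out myd88+/+ replicate 2 gave 3, and leaving out any other single library gave 4 to 6. Leaving out ddit4, tsc22d3 and sgk1, which belong to the network, 5 of the other 18 fell, 16 of 18 lay below 0 and the median was -0.82. fkbp5 had 3329, 4186 and 5403 normalized counts in myd88-/- pools, against 21549, 26194 and 27804 in myd88+/+ pools (-2.57, limma adjusted p 0.00109). klf9, a transcription factor, had 44, 57 and 74 in myd88-/- pools, against 413, 544 and 354 in myd88+/+ pools (-2.89, limma adjusted p 0.00133). per1a, a clock repressor, had 34, 34 and 66 in myd88-/- pools, against 321, 348 and 371 in myd88+/+ pools (-3.00, limma adjusted p 0.00210). These genes fell without overlap. zbtb16a, a transcription factor, had 489, 421 and 1023 in myd88-/- pools, against 2672, 2689 and 2402 in myd88+/+ pools (-2.12, limma adjusted p 0.0141). hsd11b2, which inactivates cortisol, had 308, 345 and 461 in myd88-/- pools, against 1304, 1223 and 975 in myd88+/+ pools (-1.66, limma adjusted p 0.00453). The mineralocorticoid receptor nr3c2 lay higher without passing (1.00, limma adjusted p 0.165). So did the glucocorticoid receptor nr3c1, without overlap between genotypes (0.44, limma adjusted p 0.195).

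Replicate 3 set much of the spread of ddit4 in both genotypes. In myd88+/+ pools replicate 3 over the mean of the others was 3.15 for ddit4, 2.11 for dusp1, 1.77 for pck1, 1.70 for sgk1 and 1.53 for tsc22d3, against 1.17 for fkbp5, 1.11 for per1a and 0.74 for klf9. In myd88-/- pools it was 3.62 for ddit4, 3.85 for hsd20b2, 3.09 for glula, 2.56 for zbtb16b and 2.25 for zbtb16a, against 1.44 for fkbp5. A high replicate 3 was thus seen in part of the list in either genotype. Apart from ddit4 and pck1 the genes named as high differed between genotypes, but they were picked by their values. per1a had a ratio of 1.94 in myd88-/- pools, and nr3c2 had 1.545 in myd88+/+ and 1.42 in myd88-/- pools. In myd88+/+ pools the ratio was 0.574 for hsd20b2, 0.921 for glula, 0.395 for zbtb16b and 0.896 for zbtb16a. In myd88-/- pools it was 0.870 for sgk1 and 1.131 for tsc22d3. For pck1 it was also high in myd88-/- pools (1.83), but its counts were low. They were 4, 8 and 11 in myd88-/- pools and 11, 6 and 15 in myd88+/+ pools. Immediate early genes, which tissue dissociation can induce, had 0 of 27 past the criteria and a median of 0.01, with the smallest p at egr3 (-0.84, limma adjusted p 0.143) and fosl2 (0.31, limma adjusted p 0.360). At an unadjusted limma p under 0.05, 5 were lower and 1 higher, against 6.97% and 6.20% of all genes. Their sums were 359340 to 503889 in myd88-/- libraries, highest in replicate 3, and 400804 to 461216 in myd88+/+ libraries.

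**Figure D5:**
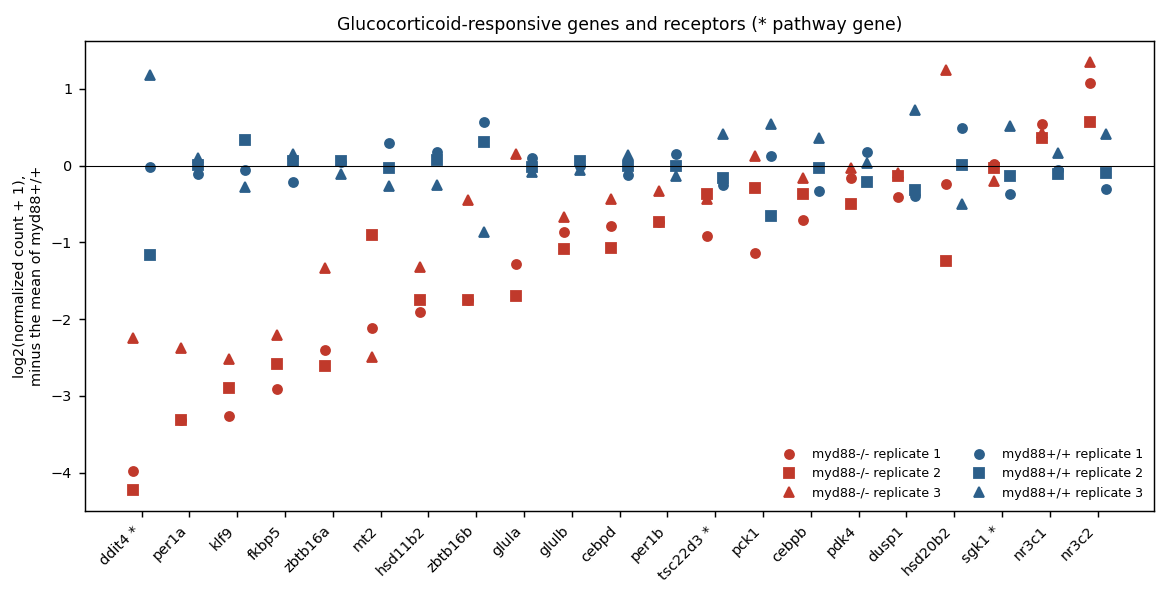
Log2(normalized count + 1) in each library, minus the mean of the myd88+/+ libraries, for the 21 glucocorticoid-responsive genes and receptors, ordered by fold change, with asterisks on the 3 that belong to the network. ddit4 lies lowest and has the widest spread in myd88+/+ libraries, per1a, klf9 and fkbp5 lie low with narrow spreads, and sgk1 overlaps between genotypes.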

How the data were processed

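RNA of FACS-sorted krt4:EGFP+ cells, pooled from 4 ventricles a library, was sequenced as poly(A) libraries (3 myd88-/- and 3 myd88+/+, 96 hpci). The authors trimmed reads with Trimmomatic 0.39, aligned them to danRer11 with STAR 2.7.10a, removed duplicate, multimapping, ribosomal and mitochondrial reads with Picard 3.0.0, counted reads on exons that belong to 1 gene with featureCounts 2.0.4 and normalized with DESeq2 1.36.0. The deposited values are normalized counts rounded to whole numbers by the authors, here treated as a score and not as raw counts. Whether counting used strand is not given in the sources used here. Reads of 7 network genes that overlap a listed gene may thus have been left out where both genes cover them. Raw depth is unknown, so no counting interval is given.

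Values were analysed as log2(value + 1) with limma 3.58.1 in R 4.3.3 (eBayes with trend, genotype as the only term) over the 16383 of 17835 genes with a mean above 5. Benjamini-Hochberg adjustment covered these genes, and a gene passed at an adjusted p under 0.05 and a fold change above 1.5 (log2 0.58). The fold changes are on this log2(value + 1) scale, which understates changes of low genes. The procedure was also run on simulated data, but its outcome is not given, so no rate of detection or of false calls is claimed. Nothing states that pools came from separate days or clutches, so p-values measure the spread between these pools. Gene positions come from the deposited table.

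Values in every library are given for network genes past the criteria or with an unadjusted p under 0.05, for mtor, rptor, tsc2, pdpk1a, pdpk1b, the gene with the highest mean in each role group except 1 group, whose gene is not reported here, and both copies of a pair with 1 past the criteria. From each list of pathway genes are named those past the criteria, with their values in every library, and in a direction with none the gene with the smallest p, with its fold change. sesn2, foxo1b, foxo3a, foxo4, akt1, eif4ebp1, irs1, irs2a, phlpp1, phlpp2 and others named were chosen after their values were seen. The network genes and the lists were chosen with earlier results of these data known. Alternatives were a pseudocount of 5, no filter, a mean above 50, equal library totals, no trend, array weights, the replicate number as a block, and each library left out in turn.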

Additional observations from a re-analysis of the deposited data

How the results depend on the processing

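All genes past the criteria numbered 115. They numbered 25 without a trend, 282 with array weights, 45 with the replicate block and 28 to 247 with 1 library left out. Network genes past the criteria numbered 3, and 1 with equal library totals, 1 without a trend, 7 with array weights, 2 with the replicate block (ddit4 and pip4k2aa) and 1 to 9 with 1 library left out. The median over the network was -0.06 to 0.00 with 1 library left out. Nothing states that the replicate numbers pair the samples. Deviations of same-numbered libraries correlated at -0.12, 0.13 and -0.14 over all genes tested, which cannot decide whether some samples shared handling. The block is thus given as a value, and the call of SGK3, lost under it, is not read either way. Log2 fold changes near 0 changed sign with equal library totals for pip4k2ca (0.040), rhebl1 (0.022) and rptor (0.028), and with array weights for pip4k2ca (0.022) and sgk1 (0.044). With 1 library left out they lay between -0.051 and 0.042 for pip4k2ca, -0.16 and 0.081 for rhebl1, -0.15 and 0.084 for rptor, and -0.26 and 0.19 for sgk1. The cause was not tested. Leaving out a library leaves 2 in its genotype, which are then assumed to vary like the other genotype. Few libraries and unknown raw depth limit the values of genes with low counts.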
